A study of Mus musculus with 24 samples.

Results

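Stc1, Spock2, Agtr1a and Ces2g are 4 of the 33079 genes in the deposited expression table. They were selected on their 24 h cosines: in the same 24 libraries described here, their fitted peak fell at a different time of day in WT and in KO cells. Amplitude and peak time therefore chose these genes and are given below as a description, with no test. The selection did not use the mean level over the time course or a slow drift, and these were tested.

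The libraries came from mouse embryonic stem (ES) cells carrying a Per2::Luciferase knock-in, differentiated for 28 days, first as floating embryoid bodies and then plated. WT cells carried the knock-in alone, and KO cells were in addition deficient in Rev-erba and Rev-erbb, 2 nuclear receptor genes of the clock in which exons had been deleted with CRISPR/Cas9. Both genotypes received 100 nM dexamethasone, a glucocorticoid that sets the clocks of the cells to a common phase. RNA was taken every 4 h from 12 to 56 h afterwards, from 3 pooled embryoid bodies per library, which gives 12 libraries of each genotype and 1 library of each genotype at each time point. KO lines were established from picked colonies, and the number of lines behind these libraries is not given in the sources used here, so that an effect of the deletions and a difference between cell lines cannot be told apart. Within a genotype the time points stand in for replicates, and the p-values below measure the spread between these libraries only.

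The clock is a loop of transcription factors. BMAL1 (gene Arntl) with CLOCK or NPAS2 drives the Per and Cry genes through E-box sequences, and PER and CRY proteins then shut off their own transcription. REV-ERBs are heme-binding repressors that sit on ROR elements, the sites that ROR receptors use to activate, and so hold down Arntl and Npas2 at a certain time of day. DBP, TEF and HLF, made under E-box control, pass the rhythm on through D-boxes to other genes. The 4 genes described here belong to none of these groups. Stc1 encodes stanniocalcin-1, a secreted glycoprotein of calcium and phosphate handling that also blocks the proteinase PAPP-A. Spock2 encodes testican-2, a proteoglycan of the extracellular matrix from the SPARC family. Agtr1a encodes the type 1a receptor of angiotensin II, the G protein-coupled receptor through which this peptide raises vessel tone and salt retention. Ces2g encodes an esterase of the carboxylesterase 2 family, enzymes of the endoplasmic reticulum that cleave ester-containing lipids and drugs.

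All 4 genes are coding and lie on the plus strand of GRCm38. Stc1 (uc007ulz.1) spans chr14:69029289-69041401 with 4 annotated exons and an exonic length of 3739 bases. Spock2 (uc007fel.1) spans chr10:60106257-60133913 with up to 11 exons and 3904 exonic bases. Agtr1a (uc007pyu.2) spans chr13:30336356-30382867 with up to 4 exons and 2281 exonic bases. Ces2g (uc009nbk.2) spans chr8:104961718-104969537 with up to 12 exons and 2847 exonic bases, in a cluster of related carboxylesterase genes. Exons of the antisense gene Gm41192 cover 229 exonic bases of Stc1. The library kit did not mark strand, so reads of these bases cannot be assigned to Stc1 or to Gm41192.

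Promoter sequences from RefSeq (GRCm38.p6) were at hand for 2 of the 4 genes, Ces2g and Spock2, and cover 300 bases around the annotated start, most of them before it. Capitals mark the matches to 10 short motifs of clock and hormone factors, sought on both strands. The Ces2g promoter (chr8:104961468-104961767, plus strand) and the Spock2 promoter (chr10:60106007-60106306, plus strand) read as follows.
Ces2g: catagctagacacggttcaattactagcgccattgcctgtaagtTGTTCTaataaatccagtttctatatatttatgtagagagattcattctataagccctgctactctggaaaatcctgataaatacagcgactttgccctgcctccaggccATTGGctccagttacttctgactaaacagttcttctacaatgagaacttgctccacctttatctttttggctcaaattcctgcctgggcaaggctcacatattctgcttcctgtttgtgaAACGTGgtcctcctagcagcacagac
Spock2: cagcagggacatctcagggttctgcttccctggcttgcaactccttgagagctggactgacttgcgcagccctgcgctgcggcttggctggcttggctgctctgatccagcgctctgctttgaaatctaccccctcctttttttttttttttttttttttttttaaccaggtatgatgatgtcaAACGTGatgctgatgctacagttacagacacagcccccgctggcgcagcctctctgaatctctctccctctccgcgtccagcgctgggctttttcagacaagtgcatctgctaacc
Both windows held the E-box variant CACGTT on the minus strand, at position 24 in Ces2g and at -66 in Spock2, counted from 0 at the start to the first capital. This motif was present in 4.68% of the 32851 promoters searched. Ces2g also held the NF-Y motif CCAAT at -96 and the glucocorticoid half-site AGAACA at -206, both on the minus strand, and these were present in 37.4% and 19% of promoters. Neither window held the ROR half-site AGGTCA (16.3% of promoters), its extended forms TAGGTCA (2.61%) and TGGGTCA (3.98%), the E-box CACGTG (7.15%), the D-boxes TTATGTAA (0.938%) and TTACGTAA (0.119%), or the HNF1 half-site GTTAAT (7.1%). AGGTCA overlaps TAGGTCA. A match is a run of letters and not a shown binding site.

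Each library held between 6183500.5 and 10287969 fragments on exons and correlated with the others at a median r of 0.975 to 0.986 over log2 values, with no identical pair. Values are RPKM, the reads on a gene's exons divided by exon length and by library depth, so that levels of different genes are comparable per length. The targeted genes were still detected: Nr1d1 (Rev-erba) averaged 5.04 ± 1.26 RPKM in WT and 6.39 ± 2.67 in KO (SD, n = 12), and Nr1d2 (Rev-erbb) 1.85 ± 0.746 in WT and 3.22 ± 1.34 in KO. The deletions take out exons and not the whole gene, so a value summed over exons does not check them.

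In WT cells the level of Stc1 was lowest at 5.60 RPKM at 52 h, had a median of 6.94 and was highest at 8.42 at 40 h. In KO cells it was lowest at 4.10 at 44 h, had a median of 5.61 and was highest at 7.37 at 56 h. The highest WT level and the lowest KO level thus fell 4 h apart, and the ranges of the genotypes overlapped. Spock2 ranged in WT from 10.6 RPKM at 16 h through a median of 11.6 to 13.7 at 36 h, and in KO from 7.06 at 20 h through 8.75 to 11.2 at 56 h. Only the KO libraries of 52 and 56 h rose above the lowest WT library. Agtr1a ranged in WT from 9.21 RPKM at 36 h through a median of 11.3 to 12.5 at 12 h, and in KO from 8.05 at 20 h through 9.59 to 11.3 at 52 h. Ces2g ranged in WT from 14.4 RPKM at 16 h through a median of 16.7 to 20.9 at 48 h, and in KO from 11.5 at 12 h through 16.4 to 20.5 at 52 h. For these 2 genes the ranges overlapped over most of their width. Per length, Ces2g was the most abundant of the 4 genes and Stc1 the least, while Spock2 and Agtr1a in WT lay within each other's spread.

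**Figure D1:**
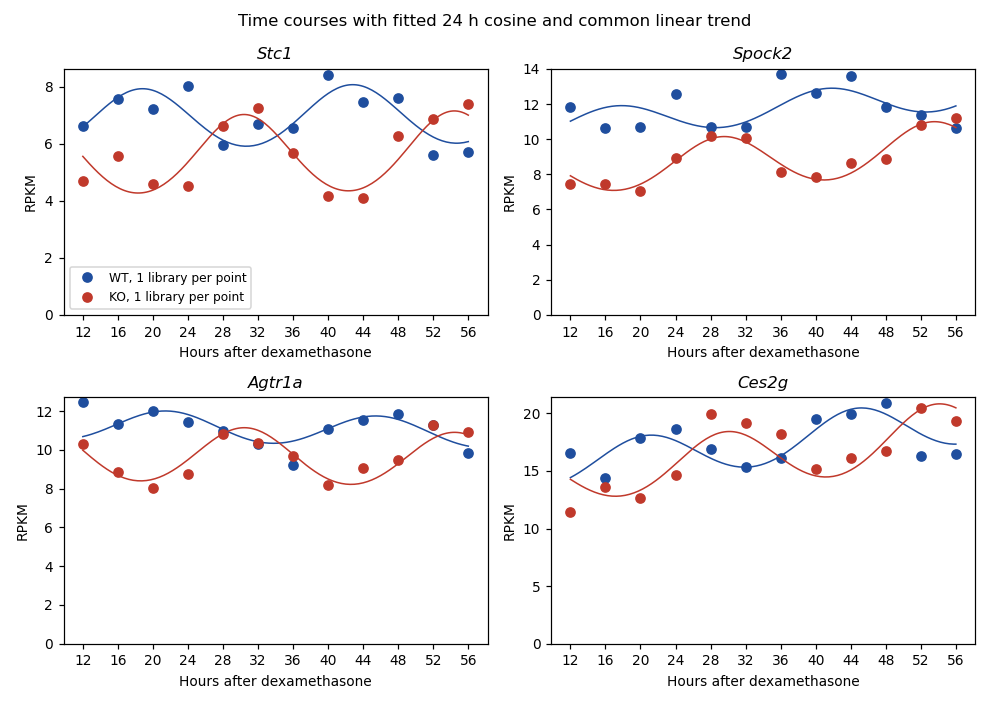
Level in RPKM (vertical axes from 0) against hours after dexamethasone for the 4 genes, with 1 library per point, WT in blue and KO in red, and lines for the fitted 24 h cosine of each genotype with a common linear trend. In each cycle KO points are highest at 28 to 32 h and 52 to 56 h, while WT points of Stc1 are highest at 24 and 40 h and those of Ces2g at 24 and 48 h.

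The ratio of KO to WT at each time point shows the pattern most directly. From 12 to 24 h it lay below 1 in all 4 genes, at 0.563 to 0.734 for Stc1, 0.633 to 0.709 for Spock2, 0.671 to 0.824 for Agtr1a and 0.694 to 0.945 for Ces2g. At 28 h the ratios were 1.11 for Stc1, 0.954 for Spock2, 0.988 for Agtr1a and 1.18 for Ces2g, and at 32 h they were 1.08, 0.941, 1.01 and 1.25 in the same order. Levels in KO were thus close to those in WT, or above them, 4 h after a time point at which all were below. From 40 to 48 h the ratios were again below 1, at 0.495 to 0.826 for Stc1, 0.622 to 0.751 for Spock2, 0.738 to 0.799 for Agtr1a and 0.774 to 0.811 for Ces2g. At 56 h they reached 1.29 for Stc1, 1.05 for Spock2, 1.11 for Agtr1a and 1.17 for Ces2g. The 36 h time point divided the genes, with ratios of 1.05 for Agtr1a and 1.13 for Ces2g but 0.865 for Stc1 and 0.594 for Spock2. The lowest and the highest ratio of Stc1, 0.495 at 40 h and 1.29 at 56 h, came from libraries 16 h apart.

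**Figure D2:**
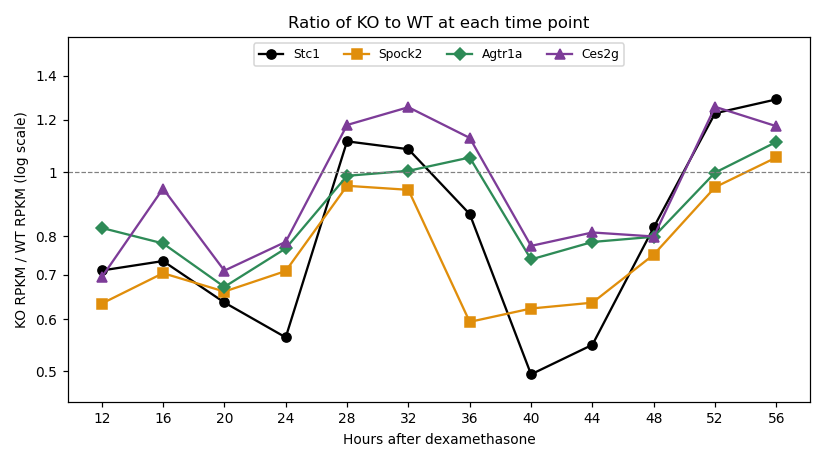
Ratio of KO to WT RPKM (vertical log axis, dashed line at 1) against hours after dexamethasone for the 4 genes, each point from 1 library of each genotype. All 4 lines lie below 1 from 12 to 24 h and from 40 to 48 h, and Stc1 spans the widest range, from 0.495 at 40 h to 1.29 at 56 h.

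Both sides of the ratio moved in Stc1 and Ces2g, and in Spock2 between 24 and 28 h. In Agtr1a mainly the KO side moved. Between 24 and 28 h Stc1 went from 8.03 to 5.94 RPKM in WT and from 4.52 to 6.62 in KO. Between 48 and 52 h it went from 7.60 to 5.60 in WT and from 6.27 to 6.88 in KO. Ces2g went from 18.7 to 16.9 RPKM in WT and from 14.6 to 19.9 in KO between 24 and 28 h, and from 20.9 to 16.3 in WT and from 16.7 to 20.5 in KO between 48 and 52 h. Spock2 went from 12.6 to 10.7 RPKM in WT and from 8.91 to 10.2 in KO between 24 and 28 h. From 48 to 52 h it went from 11.8 to 11.4 in WT and from 8.86 to 10.8 in KO. Its WT level was 10.6 and 10.7 RPKM at 16 and 20 h, the times next to its fitted WT peak. Agtr1a went from 11.4 to 10.98 RPKM in WT, a small step, and from 8.78 to 10.8 in KO between 24 and 28 h.

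A 24 h cosine with a linear trend, fitted to log2(RPKM + 0.1), summarised these courses. Amplitude is the height of the cosine above its mean on the log2 scale, and peak time is counted in hours after dexamethasone, modulo 24, so that a peak at 6 h falls between 28 and 32 h and between 52 and 56 h. Stc1 had an amplitude of 0.21 ± 0.067 (SE) with a peak at 18.7 ± 1.18 h in WT, and of 0.35 ± 0.067 with a peak at 6.36 ± 0.731 h in KO. From trough to peak this is 1.35-fold in WT and 1.62-fold in KO, with the peaks 11.6 ± 1.39 h apart. Spock2 had an amplitude of 0.11 ± 0.047 with a peak at 17.2 ± 1.62 h in WT, and of 0.23 ± 0.047 with a peak at 5.25 ± 0.763 h in KO. Its KO peak came -11.9 ± 1.79 h from its WT peak, which on a 24 h circle is again close to opposite phase. The fold from trough to peak was 1.16 in WT and 1.37 in KO.

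Agtr1a had an amplitude of 0.099 ± 0.038 with a peak at 21.6 ± 1.55 h in WT, and of 0.21 ± 0.039 with a peak at 6.51 ± 0.711 h in KO, a distance of 8.92 ± 1.70 h. Ces2g had an amplitude of 0.16 ± 0.057 with a peak at 20.6 ± 1.40 h in WT, and of 0.22 ± 0.059 with a peak at 5.65 ± 1.02 h in KO, a distance of 9.08 ± 1.73 h. The fold from trough to peak was 1.15 in WT and 1.34 in KO for Agtr1a, and 1.25 and 1.35 for Ces2g. In all 4 genes the fitted amplitude was larger in KO than in WT, and the difference was smallest in Ces2g, where it was within 1 SE. Over all 15112 genes tested the median amplitude was 0.078 in WT and 0.072 in KO.

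The 4 KO peaks lay within 5.25 to 6.51 h, with neighbouring peaks less than 1 SE apart, and the WT peaks were spread over 17.2 to 21.6 h. The WT rhythm was the less well determined one. The WT amplitude was 3.21 times its SE for Stc1, 2.26 times for Spock2, 2.59 times for Agtr1a and 2.82 times for Ces2g, against 5.14, 4.82, 5.31 and 3.64 times in KO. By the F value of the difference between the genotypes' cosines, which the selection shares, Stc1 ranked 2, Spock2 4, Agtr1a 5 and Ces2g 19 among the 15112 genes. Across all genes, 1 gene passed the test of a rhythm difference (0.00662%; limma, adjusted p under 0.05), the clock gene Npas2, while 751 genes had an unadjusted p under 0.05. Since this contrast chose the 4 genes, nothing is read from it for them.

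The same fit was made in each 24 h cycle alone, as a description of the libraries that chose the genes. In KO all 4 genes had an amplitude over 2 SE in both cycles, with peaks at 7.21 h from 12 to 32 h and at 5.76 h from 36 to 56 h for Stc1, 4.99 and 5.16 h for Spock2, 7.66 and 5.63 h for Agtr1a, and 4.79 and 6.20 h for Ces2g. In WT the amplitude of the first cycle was 1.20 SE for Stc1, 0.496 SE for Spock2, 1.58 SE for Agtr1a and 1.27 SE for Ces2g, so that none of these peak times was determined. In the second cycle the WT amplitudes were 0.28 ± 0.065 for Stc1, 0.15 ± 0.067 for Spock2, 0.17 ± 0.037 for Agtr1a and 0.20 ± 0.046 for Ces2g, with peaks at 18.5, 17.0, 22.7 and 20.6 h. The KO peaks thus lay at a like time in both cycles, whereas the WT peaks were determined only from 36 to 56 h.

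The assumed period of 24 h suited some of these courses better than others. Among the periods scanned from 20 to 28 h, the best for Stc1 was 23 h in both genotypes, with 64.6% of the detrended variance in WT and 68.8% in KO, against 63.2% and 67.5% at 24 h. Spock2 in KO was best at 25 h (85.5%, against 83.6% at 24 h) and Agtr1a in KO at 22 h (90.5%, against 81.7%). The best period lay at an end of the scan for Spock2 in WT (28 h, 32.3% against 24% at 24 h), for Agtr1a in WT (28 h, 60.7% against 41.4%) and for Ces2g in both genotypes (20 h in WT, 73.7% against 55.6%, and 28 h in KO, 62.9% against 51.5%). A WT period for these 3 genes, and a KO period for Ces2g, was therefore not determined by these time points.

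Per genes and output activators of the clock peaked within 2 h of each other in the genotypes. Dbp, an E-box-driven activator, had an amplitude of 0.44 ± 0.062 with a peak at 5.87 ± 0.519 h in WT and of 0.90 ± 0.062 with a peak at 5.38 ± 0.254 h in KO. Per3 peaked at 6.50 h in WT and 6.35 h in KO, Tef at 7.80 and 6.28 h, Hlf at 7.92 and 7.71 h, and Per2 at 8.36 and 8.35 h. The KO peaks of the 4 genes thus lay at the time of day of Dbp, Per3 and Tef, at which no member had its WT peak. The WT peaks of Stc1 and Spock2, at 18.7 and 17.2 h, lay next to that of Npas2 at 17.3 ± 0.532 h, and later than that of Arntl at 15.7 ± 0.683 h. For Spock2 this placing is weak, since its WT amplitude was 2.26 SE and fell under 2 SE in many alternative fits. Npas2, a partner of BMAL1 and a target of REV-ERBs, had an amplitude of 0.28 ± 0.041 in WT and of 0.14 ± 0.041 in KO, where its peak fell at 5.16 ± 1.10 h. Its fitted KO peak lay 11.8 h from its WT peak, much as in Stc1 and Spock2, but its amplitude was smaller in KO where theirs were larger. The Npas2 rhythm in KO did not pass the test of a rhythm (limma adjusted p = 0.519). The paper reports its expression rhythm as lost in KO and its level as constantly raised. Arntl in KO had an amplitude of 0.054 ± 0.045 and no determined peak. Of the 18 clock genes, 7 passed the test of a rhythm in WT and 9 in KO, where 0.0529% and 0.0794% of all genes did, and 1, Npas2, passed the test of a rhythm difference.

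**Figure D3:**
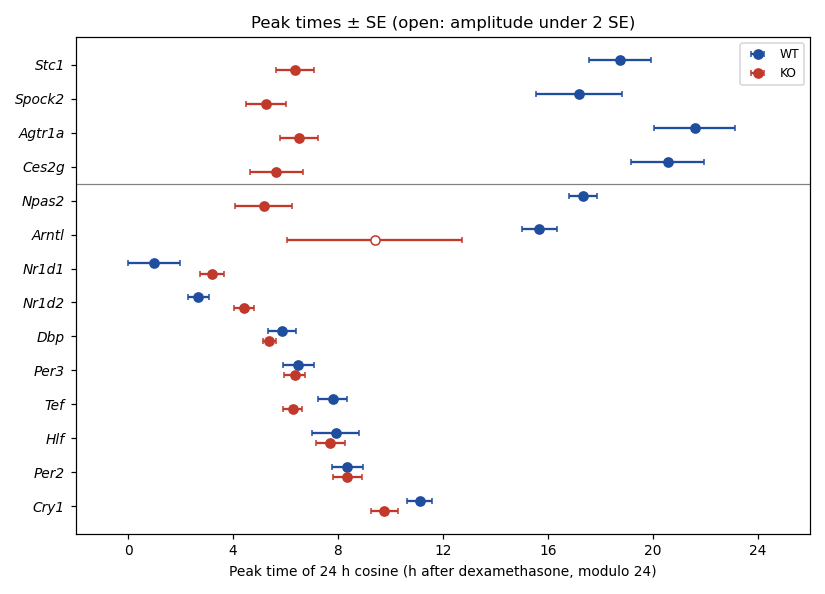
Peak time of the fitted 24 h cosine (horizontal axis, hours after dexamethasone modulo 24) ± SE in WT (blue) and KO (red) for the 4 genes above the line and 10 clock genes below it, with open symbols where the amplitude was under 2 SE. KO peaks of the 4 genes lie at 5.25 to 6.51 h beside those of Dbp, Per3 and Tef, and WT peaks at 17.2 to 21.6 h.

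A large phase difference was not the usual pattern among genes with an amplitude of at least 2 SE in both genotypes. This rule is lenient: only 8 genes in WT and 12 in KO passed the test of a rhythm (limma, adjusted p under 0.05). Many amplitudes counted here can thus be noise. Of 12043 genes with a mean of at least 1 RPKM, 3201 had an amplitude of at least 2 SE in WT, 2811 in KO and 963 in both. Of these 963 genes, 679 had peaks within 4 h of each other, and 88 (9.14%) had peaks at least as far apart as Agtr1a, the member with the smallest distance. A KO peak between 4 and 8 h, as in all 4 members, was found in 631 of the 2811 genes, and a peak between 16 and 20 h in 1149. In WT, 1013 of 3201 genes peaked between 16 and 20 h, as Stc1 and Spock2 did, and 213 between 20 and 24 h, as Agtr1a and Ces2g did. These counts are a description over genes, which share their libraries and are not independent.

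The mean level over the time course was lower in KO for 3 of the 4 genes. Spock2 fell from 11.7 ± 1.15 RPKM in WT to 8.89 ± 1.39 in KO (SD, n = 12), a log2 difference of -0.41 (SE 0.073, limma adjusted p = 0.000311), and was lower at 11 of 12 time points. Agtr1a fell from 11.1 ± 0.930 to 9.66 ± 1.09 RPKM, a log2 difference of -0.21 (SE 0.058, limma adjusted p = 0.0116), lower at 9 of 12 time points. Stc1 fell from 6.95 ± 0.912 to 5.64 ± 1.22 RPKM, a log2 difference of -0.32 (SE 0.10, limma adjusted p = 0.0236), lower at 8 of 12. A block for the time point raised the limma adjusted p of Stc1 to 0.0752, which ended its call. Ces2g averaged 17.4 ± 1.98 RPKM in WT and 16.5 ± 3.01 in KO, a log2 difference of -0.10 (SE 0.089, limma adjusted p = 0.456), lower at 7 of 12. The same test called 25.9% of the 15112 genes, 11.2% higher and 14.7% lower in KO, with a median log2 difference of -0.013, so 3 of 4 stands against a background in which such calls were common. A lower mean can come from fewer cells of a type in the embryoid bodies or from less RNA per cell, which cannot be told apart in bulk samples.

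Because the genotypes differed by time of day, the ratio of means hides most of the pattern. The mean of Stc1 in KO was 0.811 of that in WT, while single time points lay between 0.495 and 1.29. For Spock2 the ratio of means was 0.758 and single time points lay between 0.594 and 1.05, for Agtr1a 0.868 with 0.671 to 1.11, and for Ces2g 0.945 with 0.694 to 1.26. The slow drift over the time course, with the 24 h terms of each genotype in the model, did not pass the test for any member. The drift in KO minus that in WT was 0.097 log2 units per 24 h for Stc1 (SE 0.12, limma adjusted p = 0.911), 0.057 for Spock2 (SE 0.087, adjusted p = 0.924), 0.11 for Agtr1a (SE 0.072, adjusted p = 0.838) and 0.13 for Ces2g (SE 0.10, adjusted p = 0.870). Of all 15112 genes 0% passed this test, with 964 at an unadjusted p under 0.05, and drifts of the members' size were not detectable at this spread.

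Counting error was smaller than the scatter about the cosines. Turned back into fragments, the values came to 214 to 634 fragments per library for Stc1, 398 to 1203.5 for Spock2, 257 to 598.5 for Agtr1a and 446.5 to 1286 for Ces2g. Counting alone at the gene's mean number of fragments gives an SD of 0.071 log2 units for Stc1, 0.054 for Spock2, 0.071 for Agtr1a and 0.050 for Ces2g. The scatter of the libraries about the fitted curves was 0.16, 0.11, 0.094 and 0.14 log2 units in the same order. These counting errors cover sampling of fragments only. The WT amplitudes of Spock2, 0.11, and of Agtr1a, 0.099, were about as large as this scatter.

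Stc1 inhibits PAPP-A, a metalloproteinase that frees insulin-like growth factors by cutting IGF-binding proteins. Of the 6 genes of this axis, 0 passed the level test as higher in KO and 2 as lower, beside 11.2% and 14.7% of all genes. These were Stc1 and Pappa, which fell from 1.91 to 1.43 RPKM (log2 difference -0.39, SE 0.064, limma adjusted p = 0.000141). The related hormone gene Stc2 averaged 6.74 RPKM in WT and 7.65 in KO (limma adjusted p = 0.0892). The most abundant genes of the list were the PAPP-A substrates Igfbp4, at 109.7 RPKM in WT and 105.7 in KO, and Igfbp5, at 12.2 and 11.5, neither of which passed. The median log2 difference of the list was -0.066, against -0.013 over all genes.

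Of the SPARC family, which modulates contacts of cells with the matrix, 7 of 8 genes were tested, and 3 were lower and 0 higher in KO, beside 14.7% and 11.2% over all genes. Beside Spock2 these were Smoc2, from 21.0 to 10.8 RPKM (log2 difference -0.96, SE 0.071, limma adjusted p = 1.66e-09), and Spock1, the testican-1 gene, from 0.313 to 0.108 RPKM. The most abundant members, Sparc at 1733 RPKM in WT and 1707 in KO and Fstl1 at 149.0 and 144.0, did not pass. The median log2 difference was -0.052. Spock2 was the only testican gene above 1 RPKM in either genotype.

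Of 16 genes of the renin-angiotensin system 13 were tested, with 1 higher and 5 lower in KO, beside 11.2% and 14.7% over all genes. Higher was Agt, the precursor of all angiotensins, at 3.89 RPKM in WT and 5.68 in KO (log2 difference 0.56, SE 0.14, limma adjusted p = 0.00539). Lower beside Agtr1a were Ace, which makes angiotensin II, from 6.59 to 3.86 RPKM (log2 difference -0.75, SE 0.10), and the aminopeptidases Anpep (-0.66), Enpep (-0.62) and Lnpep (-0.26), which trim angiotensins. Agtr1a was the main angiotensin II receptor gene per length: Agtr2 averaged 0.541 RPKM in WT and 0.509 in KO, and Agtr1b 0.00396 and 0.00555. Atp6ap2, the prorenin receptor gene, was the most abundant of the list at 14.0 and 13.6 RPKM and did not pass. The median log2 difference was -0.074.

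Of 20 carboxylesterase genes only 4 were abundant enough to be tested, and 2 were higher and 0 lower in KO, beside 11.2% and 14.7% over all genes. Ces2e was at 0.389 RPKM in WT and 0.563 in KO (log2 difference 0.46, SE 0.13, limma adjusted p = 0.0108), and Ces2f at 0.631 and 1.01 (0.63, SE 0.15, limma adjusted p = 0.00316). Ces2g itself and Ces1d, at 3.58 and 3.52 RPKM, did not pass. Ces2g at 17.4 RPKM was thus the carboxylesterase gene with by far the highest level per length in these cells. Its paralogs share sequence with it, and since reads that map to several places were removed, levels of these genes can be understated. Among the tested genes of the 4 families other than the members (5, 6, 12 and 3, in the order given), 0 passed a test of rhythm in WT, of rhythm in KO or of a rhythm difference. Of all genes 0.0529%, 0.0794% and 0.00662% passed these tests, so a count of 0 among so few genes says nothing about the families.

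The 4 genes moved together across libraries, mainly in KO. With each genotype centred on its own mean, Pearson's r of log2 values over the 12 KO libraries was 0.645 to 0.870 for the 6 pairs, highest for Spock2 with Ces2g. Over the 12 WT libraries r ran from -0.11 for Spock2 with Agtr1a to 0.514 for Spock2 with Ces2g. These values describe libraries that the genes share, and genes with a common KO peak time must correlate there, so that no test was made.

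For each member, the 3 genes with the most similar course over the 24 libraries were sought among 12042 genes. Nearest to Ces2g were Msln (r = 0.864), the gene of the surface protein mesothelin, Osr1 (0.861), a transcription factor of intermediate mesoderm, and Adgrd1 (0.848), an adhesion receptor. Nearest to Spock2 were Aebp1 (0.835), a matrix protein, Klhl30 (0.829) and Slc4a11 (0.816), a membrane transporter. Nearest to Stc1 were Folr1 (0.782), a folate receptor, Lrrn4 (0.772) and Rcan2 (0.754), an inhibitor of calcineurin. Nearest to Agtr1a were Rab40b (0.782), Rasl11b (0.772) and Sdpr (0.767), a caveola protein. Since likeness to the members chose these 12 genes, their rhythms are no separate evidence. Their amplitudes were 0.18 to 0.36 in KO, with peaks at 5.06 to 7.21 h, and 0.031 to 0.12 in WT.

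Msln and Lrrn4 are markers of mesothelium, the epithelium that lines body cavities, and a list of 10 mesothelial genes was drawn up after these names were seen. It holds Msln, Upk3b, Upk1b, Lrrn4, Wt1, Krt19, Muc16, Calb2, Gpm6a and Bnc1. Of the 9 that the files list, 8 had a mean of at least 1 RPKM, while Calb2 had medians of 0.184 RPKM in WT and 0.0462 in KO and was at 0 in KO at 32 h. In KO 7 of these genes had an amplitude of at least 2 SE and a peak between 4 and 8 h, the time of the members' peaks. Of all 12043 genes with a mean of at least 1 RPKM, 631 did so. The 7 include Msln and Lrrn4, whose likeness to members had chosen them. The rest of the list followed from these names and shares the same KO libraries, so the KO peaks of all 7 are no separate evidence. The KO amplitude was 0.36 ± 0.091 for Lrrn4, 0.32 ± 0.093 for Gpm6a, 0.29 ± 0.079 for Upk3b, 0.25 ± 0.067 for Bnc1 and 0.18 ± 0.080 for Msln. Krt19, the most abundant of them, had a KO amplitude of 0.10 ± 0.066. In WT only Krt19 had an amplitude of at least 2 SE, with a peak at 17.2 h.

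The summed level of these markers ranged from 426 to 518 RPKM in WT (median 468) and from 440 to 616 in KO (median 527), with its KO minimum at 20 h and its KO maximum at 28 h. The 24 h amplitude of the sum was 0.064 ± 0.046 in WT and 0.11 ± 0.045 in KO. With the 2 markers among the nearest genes left out, it was alike in the genotypes. It was then 0.086 ± 0.042 in WT, with a peak at 17.1 h, and 0.084 ± 0.042 in KO, with a peak at 6.51 h. Krt19, with its WT peak at 17.2 h, was the largest part of the reduced sum, at means of 117 RPKM in WT and 172 in KO. The WT amplitudes of Upk3b, Upk1b, Wt1, Gpm6a and Bnc1 were 0.021 to 0.057, each under 2 SE, so the WT value does not describe these markers. All 4 members also had lower KO levels at 20 h than at 28 h, which their selection by peak time already implies. Relative to the sum of all these markers, an alternative added after the data were seen, the KO amplitude was 0.24 ± 0.076 for Stc1, 0.12 ± 0.042 for Spock2, 0.10 ± 0.053 for Agtr1a and 0.11 ± 0.033 for Ces2g. Without it the amplitudes were 0.35, 0.23, 0.21 and 0.22. Without the 2 markers that are also among the nearest genes the values were 0.26, 0.15, 0.12 and 0.13. The part of mesothelial cells in the members' KO rhythm was not tested.

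**Figure D4:**
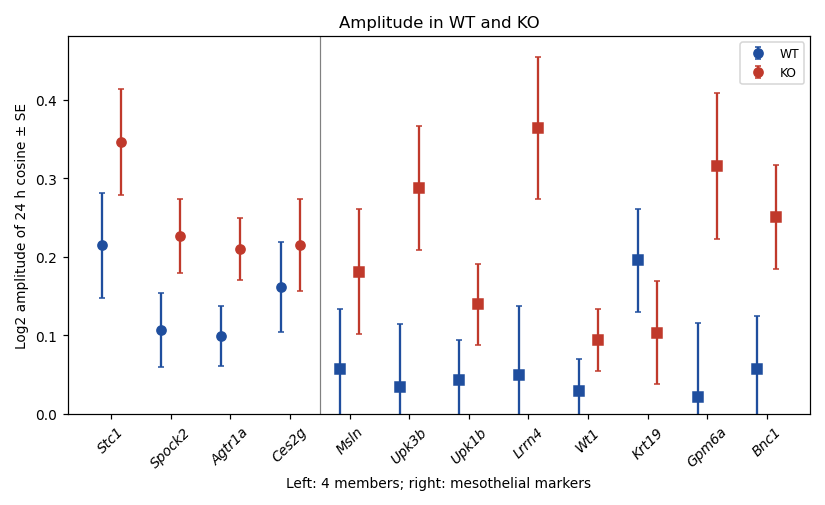
Log2 amplitude of the 24 h cosine ± SE (vertical axis) in WT (blue) and KO (red) for the 4 genes (circles, left of the line) and 8 mesothelial markers (squares, right). KO amplitudes of Lrrn4, Gpm6a, Upk3b and Bnc1 reach 0.25 to 0.36, as large as those of the members, while of the markers only Krt19 has a WT amplitude over 2 SE.

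Markers of other cells are given by their counts in the level test, which called 11.2% of all genes higher and 14.7% lower. Of 6 markers each, 5 were higher and 1 lower in KO for cardiomyocytes, 4 and 0 for smooth muscle, 3 and 0 for pericytes, 3 and 0 for endothelium, 3 and 2 for fibroblasts, 2 and 0 for macrophages, and 0 and 3 for neurons. None of the tested markers of pluripotent cells, of hepatic and yolk sac endoderm or of intestinal epithelium passed. The summed smooth muscle markers, cells that can carry Agtr1a, were at 278 to 375 RPKM in WT and 292 to 424 in KO, with medians of 295 and 340. Their 24 h amplitude was 0.053 ± 0.049 in WT and 0.12 ± 0.048 in KO, where their peak at 19.6 ± 1.52 h was far from that of Agtr1a at 6.51 h. The summed fibroblast markers, at 2869 to 3378 RPKM in WT and 3043 to 3981 in KO, had amplitudes of 0.034 ± 0.033 and 0.041 ± 0.032. Their part in the members' levels was not tested.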

How the data were processed

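RNA of 24 libraries was sequenced by the authors as polyA-selected, paired-end libraries. The submitters' processing notes and the paper give trimming with Trimmomatic 0.36, mapping with STAR 2.5.4b to GRCm38, removal of alignments with a mapping quality under 10 with SAMtools, and HOMER counts over exons of UCSC known canonical gene models. The authors deposited RPKM, scaled to exonic length and library total, and strand use is not given in the sources used here. RPKM gave multiples of 0.5 fragment for 100% of values (tolerance 0.01), used for depth only. Since deposited RPKM are normalized, no count test was used.

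Genes with a mean above 0.5 RPM in WT or KO (15112 of 33079) entered limma (version 3.58.1, R version 4.3.3) as log2(RPKM + 0.1). A Benjamini-Hochberg adjusted p under 0.05 was called. Fold changes on this scale understate changes of low genes. The level test had the genotype as its term. Rhythms had cosine and sine terms of 24 h for each genotype with a common linear trend, and drift a trend for each genotype. A peak was called determined where the amplitude was at least 2 SE. This is a lenient description and not a test, and noise can pass it. The tests were tested on simulated data. Figures used Python 3.11.15 and matplotlib 3.10.9.

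The members and lists were chosen with earlier results of these data known, and the mesothelial list after the nearest genes were seen. Named genes are the members, in each family list those past a test and the 2 with the highest mean RPKM, and the 3 nearest genes of each member. Genes named outside this rule, in the clock and marker lists and among related genes, were chosen after their values were seen. Marker lists are given as counts and sums. In the renin-angiotensin list 1 gene is not reported here and was left out of the counts. Alternatives varied the pseudocount, filter, scaling, period, trend, block and time points.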

Additional observations from a re-analysis of the deposited data

Results flagged for a closer look

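The rhythm of Npas2 differed between the genotypes in a test of the difference itself (limma, adjusted p = 0.0354), with an amplitude of 0.28 ± 0.041 and a peak at 17.3 h in WT and of 0.14 ± 0.041 and 5.16 h in KO. The KO rhythm taken alone did not pass its test (limma adjusted p = 0.519). Npas2 was the 1 gene of 15112 that passed the test of the difference, and it is not one of the 4 genes described. The adjusted p of its difference ranged from 0.00124 without the 12 h time point to 0.998 at a period of 22 h over the alternatives, and was 0.350 with the time point as a block.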

How the results depend on the processing

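Each time point had 1 library per genotype, so no spread within a time point was measured, and the 24 h period was assumed. Same-time libraries of the 2 genotypes deviated from their genotype's mean with an r of -0.175 to 0.389 (over 0.1 in 7 of 12 pairs), with a mean of 0.163 against -0.0149 for libraries of different times, so a weak link through the shared time was present in some pairs and not in all. With the time point as a replicate block the level test called 4212 genes in place of 3918, and the log2 difference of Stc1, -0.32, no longer passed (adjusted p = 0.0752, against 0.00108 to 0.0477 under the other alternatives). The level calls of Spock2 and Agtr1a held under all alternatives run. A rhythm difference was called for 0 genes with no filter, quantile normalization, the block, a trend for each genotype or a period of 22 h, in place of 1; at an unadjusted p under 0.05 the main test had 751.

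From 12 to 32 h alone Stc1 had an amplitude of 0.14 in WT and 0.27 in KO, Spock2 of 0.032 and 0.28, and Ces2g of 0.35 in KO. Peak distances, here counted forward from the WT to the KO peak, were then 4.73 h for Spock2, 14.3 h for Agtr1a and 4.70 h for Ces2g, with undetermined WT peaks. By the shorter way that of Agtr1a is -9.69 h. From 36 to 56 h alone the amplitude was 0.45 for Stc1 in KO and 0.17 for Agtr1a in WT, whose distance was 6.95 h. At a period of 22 h the distance was 10.04 h for Spock2 and 7.03 h for Agtr1a, and at 26 h 14.2 h for Spock2. Counted forward in the same way, the distance of Spock2 at 24 h was 12.1 h. Without a trend that of Ces2g was 7.31 h. Leaving out 1 time point at a time, the WT amplitude of Agtr1a ranged from 0.072 to 0.15, highest without 12 h. The WT amplitude of Spock2 was under 2 SE, and its peak thus undetermined, without a trend (0.071 ± 0.052). The same held with quantile normalization (0.087 ± 0.053), a trend for each genotype (0.098 ± 0.0498) and a period of 22 h (0.096 ± 0.055). Leaving out 28, 32, 40, 44, 52 or 56 h also took it under 2 SE.

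Relative to the mesothelial sum, the amplitude was 0.24 in KO for Stc1, 0.045 ± 0.042 in WT and 0.12 in KO for Spock2, 0.10 ± 0.053 in KO for Agtr1a and 0.11 in KO for Ces2g. Agtr1a was under 2 SE in both genotypes, with 0.083 ± 0.052 in WT, so its distance of 6.69 ± 3.17 h was not determined. That of Ces2g was 7.23 ± 1.56 h. Without the 2 markers among the nearest genes Stc1 had 0.14 ± 0.077 in WT and 0.26 in KO, Spock2 0.021 ± 0.042 and 0.15, Agtr1a 0.12 in KO and Ces2g 0.13 in KO. Distances were then 5.58 ± 2.28 h for Agtr1a and 6.42 ± 1.49 h for Ces2g. The causes were not tested.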
